A study of Mus musculus with 4 samples.

Results

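The globin genes of sorted mouse bone marrow erythroblasts were examined on arrays of Parp2 knockout and wild type cells. The members were all probe sets whose annotation names Hba-a1, Hba-a2, Hba-x, Hbb-b1, Hbb-b2, Hbb-bs, Hbb-bt, Hbb-bh1, Hbb-y, Hbq1a or Hbq1b, each taken once with every symbol it names. There were 9 such probe sets among 23410 annotated ones. Of the 9, 5 name 1 gene and 4 name several. Ahsp, the gene of the chaperone that holds free alpha-globin chains, was not analysed here. All 4 samples were total RNA of bone marrow cells positive for the erythroid surface protein Ter119 and the transferrin receptor CD71, on a C57BL/6 background. The 2 groups were wild type (WT, 2 arrays) and Parp-2-/- (2 arrays), the latter lacking a poly(ADP-ribose) polymerase that answers DNA damage. Age, sex, the deletion itself and any pooling of animals are not given in the sources used here. Titles number the arrays 1 and 2 within each genotype without saying what the number marks, so the globin results are given within the numbers as well. Most genotype results of other genes and lists are given over both numbers, and their direction need not hold within each. A leading number in the titles runs over 1 and 2 in the wild type and 3 and 4 in the knockout, and what it marks cannot be told apart from genotype.

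Haemoglobin is built from alpha-like and beta-like chains, each binding a heme group. In the mouse the alpha-like genes lie together on chromosome 11 and the beta-like genes on chromosome 7. Within each cluster the embryonic genes serve the first red cells of the yolk sac and the adult genes take over in liver and marrow. Erythroblasts load their RNA with adult globin transcripts as they mature. The C57BL/6 strain carries the beta-globin haplotype with Hbb-bs and Hbb-bt, while Hbb-b1 and Hbb-b2 are the adult pair of other strains.

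Values are log2 expression, on which a difference of 1 is a doubling. Array medians over the annotated probe sets ran from 5.23 to 5.49, and the interquartile range was 1.98 on knockout array 2 against 2.62 to 2.94 on the others. Parp2 read 8.24 and 7.65 on wild type arrays 1 and 2, and 7.11 and 6.70 on knockout arrays 1 and 2. Both knockout arrays were lower, the direction of the labels, with a knockout minus wild type difference of -1.04 ± 0.40 (log2, SE, n = 2 per group) and a limma adjusted p of 0.9999. The erythroid identity was checked with 10 measured erythroblast markers, among which the band 3 gene Slc4a1 read 11.5 to 13.0 and the transferrin receptor gene Tfrc 10.3 to 11.4. Neutrophil genes were also bright on all arrays, S100a8 at 12.7 to 13.3, although these cells should not carry the sorted erythroid proteins.

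The adult alpha-globin genes Hba-a1 and Hba-a2 are read by 2 probe sets that each name both genes. In the RefSeq annotation of GRCm38.p6, Hba-a1 spans positions 32283672 to 32284486 and Hba-a2 positions 32296492 to 32297310 of chromosome 11. The 250 bases before their starts, printed here to show how alike the copies are, were identical over 247 aligned bases after a shift of 3. Capitals mark matches on either strand to the CCAAT box, the TATAA box, the CACCC element or the GATAA element, known from globin promoters, and sequences run 5′ to 3′ on the gene's strand.
Hba-a1: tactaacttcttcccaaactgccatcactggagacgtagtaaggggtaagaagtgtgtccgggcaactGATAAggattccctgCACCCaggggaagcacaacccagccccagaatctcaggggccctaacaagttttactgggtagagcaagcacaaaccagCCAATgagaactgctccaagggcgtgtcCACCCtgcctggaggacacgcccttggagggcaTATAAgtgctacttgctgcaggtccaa
Hba-a2: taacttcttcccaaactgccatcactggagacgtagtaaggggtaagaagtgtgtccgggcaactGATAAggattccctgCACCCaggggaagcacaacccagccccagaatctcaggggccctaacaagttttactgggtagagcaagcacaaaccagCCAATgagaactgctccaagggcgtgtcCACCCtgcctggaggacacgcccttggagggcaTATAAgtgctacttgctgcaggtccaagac

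The first window is chr11:32283422-32283671 and the second chr11:32296242-32296491, both on the plus strand. Both held all 4 elements, with TATAA starting 27 bases before the start of Hba-a1 and 30 before that of Hba-a2. Of the 250-base windows of all 32851 promoters in the RefSeq table, 33.8% held CCAAT, 22.8% TATAA, 52.0% CACCC and 22.6% GATAA on either strand. A match describes letters, not binding.

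The adult alpha-globin signal lay close to the ceiling of the scale and hardly differed between the genotypes. Probe set 10375051 read 13.21 and 13.51 on wild type arrays 1 and 2, and 13.25 and 13.36 on knockout arrays 1 and 2. The knockout values fell inside the wild type range. Probe set 10375058 read 13.14 and 13.44 in the wild type and 13.18 and 13.28 in the knockout, again inside it. The fitted differences (knockout minus wild type) were -0.06 ± 0.36 and -0.06 ± 0.36 in log2 units (SE, 2 arrays per group). Their 95% intervals ran from -0.91 to 0.80 for each, so changes of that size cannot be told from none with 2 arrays a group. Since the probe sets name both genes, Hba-a1 and Hba-a2 cannot be told apart.

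Adult beta-globin gave the same picture. Probe set 10566254, listed to Hbb-bt, Hbb-bs, Hbb-b2 and Hbb-b1, read 13.17 and 13.56 in the wild type and 13.25 and 13.35 in the knockout. Probe set 10566258, listed to the same 4 genes, read 13.14 and 13.60 in the wild type and 13.26 and 13.40 in the knockout. On both probe sets the knockout arrays lay between the wild type arrays. The differences were -0.06 ± 0.37 (95% interval -0.93 to 0.81) and -0.04 ± 0.37 (-0.93 to 0.85; SE, n = 2 per group). Within number 1 the knockout was higher on all 4 adult probe sets, by 0.03 to 0.12, and within number 2 it was lower on all 4, by -0.21 to -0.15. Repeated quantile normalisation turned the fitted sign of 3 of the 4, to 0.0092 for 10375051, 0.026 for 10566254 and 0.071 for 10566258, so no direction is given for the adult genes.

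The highest annotated value of any probe set was 13.89 and 13.95 on wild type arrays 1 and 2, and 13.86 and 13.68 on knockout arrays 1 and 2. The scale thus ended lowest on knockout array 2. The part of this in the lower adult values within number 2 was not tested. On every array all 4 adult probe sets ranked among the 20 highest, at ranks 3 to 19 of 23410. Array signals lose proportion to RNA near the ceiling, so folds at this level can be understated. In bulk RNA, fewer erythroid cells and less globin RNA per cell cannot be told apart.

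**Figure D1:**
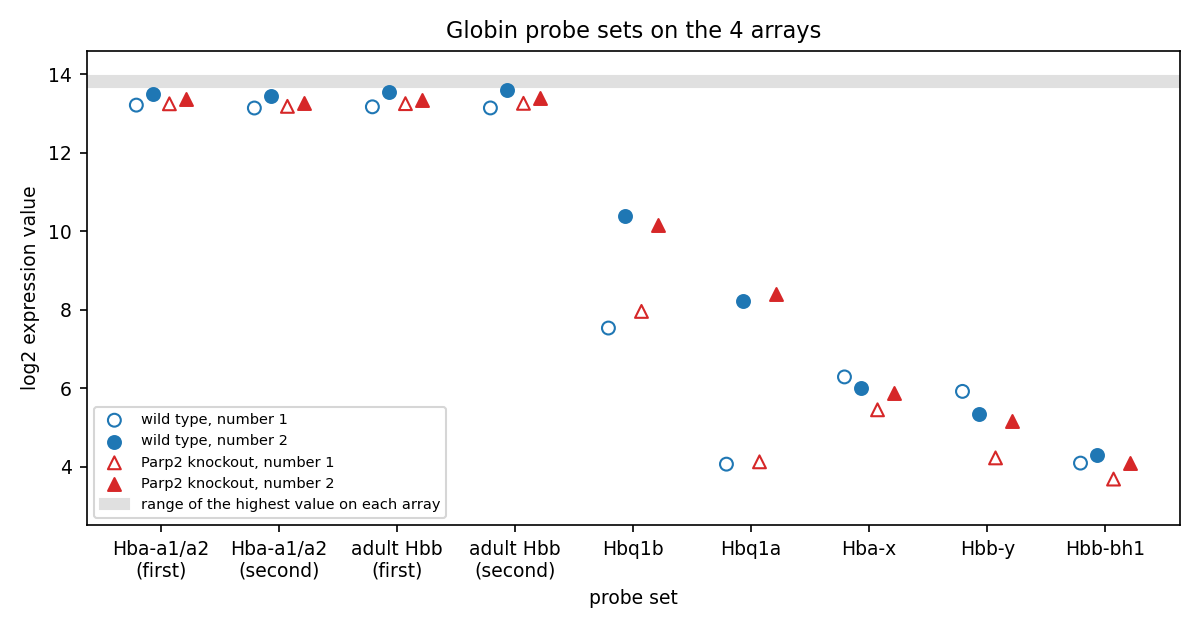
Log2 expression value (vertical axis) of the 9 globin probe sets (horizontal axis) on each array, circles for wild type and triangles for Parp2 knockout, open for number 1 and filled for number 2. "First" and "second" are probe sets 10375051 and 10375058 for alpha, 10566254 and 10566258 for beta, and the grey band spans the highest value of each array, 13.68 to 13.95. The adult probe sets lie just under the band, and Hbq1a and Hbq1b divide by number, not by genotype.

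The theta-globin genes Hbq1a and Hbq1b, alpha-like genes whose role is not settled, differed between the array numbers, while their genotype groups overlapped. In GRCm38.p6 Hbq1b lies between the adult alpha genes at positions 32286964 to 32287912 of chromosome 11, and Hbq1a after them at 32300069 to 32300873. The 250 bases before their annotated starts are shown because both genes differed by number, with the same elements in capitals.
Hbq1a: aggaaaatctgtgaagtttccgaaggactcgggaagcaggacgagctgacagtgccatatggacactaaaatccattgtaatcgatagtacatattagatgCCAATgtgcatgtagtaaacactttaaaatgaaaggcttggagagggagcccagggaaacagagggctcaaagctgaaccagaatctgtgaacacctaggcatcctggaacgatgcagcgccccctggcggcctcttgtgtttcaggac
Hbq1b: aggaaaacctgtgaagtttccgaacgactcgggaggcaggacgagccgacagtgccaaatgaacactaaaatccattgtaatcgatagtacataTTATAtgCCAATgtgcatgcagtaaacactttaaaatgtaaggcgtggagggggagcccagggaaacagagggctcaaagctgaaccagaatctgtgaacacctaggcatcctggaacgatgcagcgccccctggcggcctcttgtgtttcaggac

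These windows are chr11:32299819-32300068 and chr11:32286714-32286963 on the plus strand. They matched at 239 of 250 bases, with 11 mismatches, or 95.6%. Each held CCAAT starting 149 bases before the start, and Hbq1b alone held TATAA, on the other strand. Neither held CACCC or GATAA in this window. The theta genes are near copies of each other, so each probe set may pick up some signal of the other gene.

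Hbq1a (probe set 10375062) read 4.06 on wild type array 1 and 4.12 on knockout array 1, against 8.21 on wild type array 2 and 8.40 on knockout array 2. On the deposited scale the number 2 arrays were 17.7-fold higher in the wild type and 19.5-fold higher in the knockout. The number 1 values lay below their arrays' medians, at ranks 19578 and 18922 of 23410, and may be background, in which case these folds are too small. Hbq1b (10375055) read 7.53 and 7.95 on the number 1 arrays of wild type and knockout, and 10.39 and 10.16 on the number 2 arrays. Its number 2 arrays were 7.28-fold higher in the wild type and 4.62-fold in the knockout. For each gene the genotypes overlapped and the numbers did not. The mean difference, number 2 minus number 1, was 4.22 for Hbq1a, which ranked 1 of 23410 probe sets, and 2.54 for Hbq1b, which ranked 29. A difference of at least 4 on the log2 scale in both genotypes was seen for 0.00427% of probe sets, which is Hbq1a itself.

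Against this, the genotype differences of the theta genes were small and imprecise. The fit has no term for the number, so the number difference enters the SE and widens the intervals. Hbq1a differed by 0.13 ± 1.66 (95% interval -3.82 to 4.08) and Hbq1b by 0.10 ± 1.04 (-2.39 to 2.58; SE, n = 2 per group), both with a limma adjusted p of 0.9999. Within number 1 the knockout minus wild type difference was 0.06 for Hbq1a and 0.42 for Hbq1b. Within number 2 it was 0.19 and -0.23. Leaving out 1 array unbalances the numbers and moved Hbq1a to between -2.01 and 2.27, and Hbq1b to between -1.33 and 1.53. Without wild type array 1 the values were -1.95 and -1.33, and without knockout array 2 they were -2.01 and -1.01. Such a fit has both numbers in only 1 genotype, so part of the number difference enters its value and sign. Without wild type array 2 or knockout array 1 both differences were above 0.

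Among all members, 7 of 9 were higher on number 2 in both genotypes, against 33.7% of annotated probe sets, and 2 of 9 were higher by at least 1 on the log2 scale in both, against 1.57%. The adult probe sets were higher on number 2 by 0.29 to 0.45 in the wild type and by 0.10 to 0.14 in the knockout, near the ceiling. Array medians themselves were higher on number 2, by 0.10 in the wild type and 0.27 in the knockout. The adult differences lay above that shift in the wild type and below it in the knockout. After centring arrays on their medians the mean number difference was 4.03 for Hbq1a and 2.35 for Hbq1b, but 0.01 to 0.11 for the adult probe sets.

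**Figure D2:**
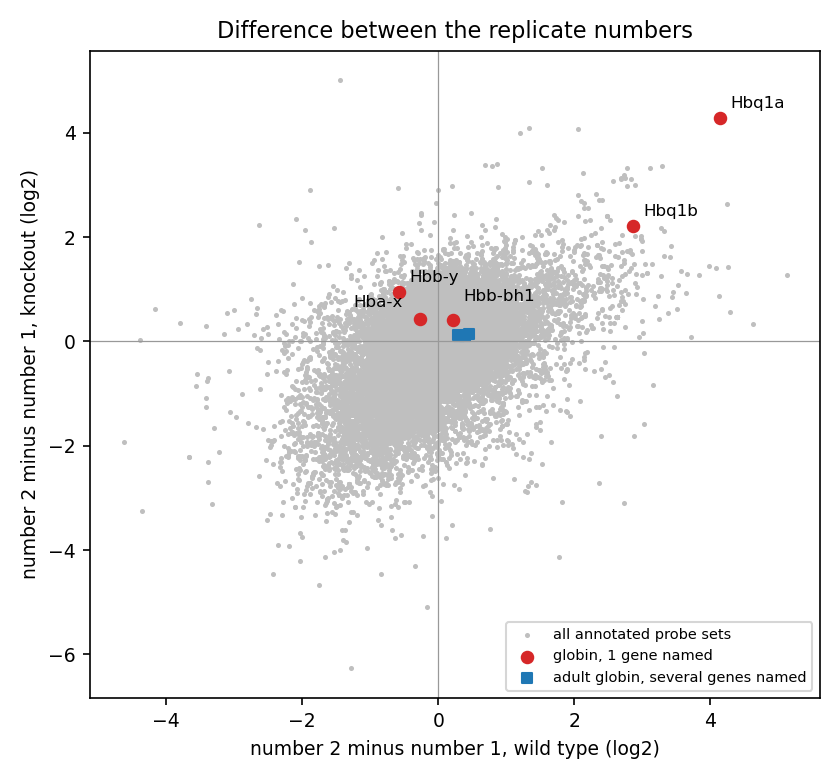
Difference between number 2 and number 1 arrays (log2) in the wild type (horizontal axis) and the knockout (vertical axis) for all 23410 annotated probe sets in grey, with single-gene globin probe sets in red and adult ones in blue. Hbq1a lies at 4.15 and 4.28, at the upper right edge of the cloud, Hbq1b at 2.86 and 2.21, and the remaining globins inside it.

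Late erythroblast markers differed by number in the same direction, while early erythroid markers were mixed. All 9 measured late erythroblast markers were higher on number 2 in both genotypes, with median differences of 1.98 in the wild type and 1.12 in the knockout. The nuclear export receptor gene Xpo7 read 6.93 and 12.05 on wild type arrays 1 and 2, and 10.45 and 11.72 on knockout arrays 1 and 2. The summed level of that list was 12.6 and 13.3 (log2) on the number 1 arrays of wild type and knockout, and 14.5 and 14.4 on the number 2 arrays. Of 10 erythroblast markers 8 were higher in both genotypes, with medians of 0.97 and 0.43. Megakaryocyte and platelet markers did so for 3 of 4 genes, with medians of 1.76 and 1.08. Those 3, Pf4, Ppbp and Itga2b, lay below the median of wild type array 1 and may be background there. The brighter Gp9 was lower on number 2 in the wild type and higher in the knockout. Of 8 monocyte and macrophage markers 6 were higher in both genotypes, with medians of 0.56 and 0.29, so the pattern was not limited to red cell genes. Neutrophil markers were lower on number 2 in both genotypes for 7 of 10 genes, with medians of -0.18 and -0.43. Of 8 early erythroid markers 4 were higher and 3 lower in both genotypes, with medians of -0.23 and 0.16. Of 7 B cell markers 4 were higher and 2 lower in both. For mast cells, basophils and eosinophils 0 of 7 were higher and 3 lower in both. The part of cell stage or cell mixture in the theta-globin difference was not tested.

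By a fixed rule of likeness, the genes whose centred values lay closest to each variable single-gene globin over the 4 arrays were listed. For Hbq1a these were the microRNA genes Mir144, Mir103-2 and Mir505, at root mean square distances of 0.45, 0.50 and 0.71 on the log2 scale. Mir144, the gene of an erythroid microRNA, read 2.27 and 5.56 on wild type arrays 1 and 2, and 2.27 and 5.64 on knockout arrays 1 and 2. Its number 1 values lay near the lowest of those arrays, 1.93 in the wild type and 1.84 in the knockout, and may be background. For Hbq1b they were Reln, Angpt2 and Srsy, at distances of 0.16 to 0.19. For Hbb-y they were Trim30d, Padi4 and Uap1l1, at 0.06 to 0.08. Many genes can lie this close over only 4 arrays, and the distance is a description.

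The embryonic genes had the lowest values in the knockout relative to wild type, without passing the test. The zeta-globin gene Hba-x and the epsilon-like gene Hbb-y are shown with the 250 bases before their starts, as the members whose genotype groups did not overlap.
Hba-x: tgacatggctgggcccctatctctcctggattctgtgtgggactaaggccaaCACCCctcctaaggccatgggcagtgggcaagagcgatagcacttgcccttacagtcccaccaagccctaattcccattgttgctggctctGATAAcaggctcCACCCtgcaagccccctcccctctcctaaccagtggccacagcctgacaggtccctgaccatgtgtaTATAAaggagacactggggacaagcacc
Hbb-y: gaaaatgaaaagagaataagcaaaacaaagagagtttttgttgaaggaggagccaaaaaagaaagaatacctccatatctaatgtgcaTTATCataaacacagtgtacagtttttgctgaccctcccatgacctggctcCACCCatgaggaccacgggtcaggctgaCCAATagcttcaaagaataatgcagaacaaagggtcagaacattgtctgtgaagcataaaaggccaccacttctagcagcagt

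The windows are chr11:32276350-32276599 on the plus strand for Hba-x and chr7:103853208-103853457 on the minus strand for Hbb-y. That of Hba-x held the TATAA box with the CACCC and the GATAA elements, and no CCAAT box. That of Hbb-y held the CCAAT box with the CACCC element and, on the other strand, the GATAA element, and no TATAA box.

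Hbb-y (probe set 10566272) read 5.92 and 5.34 on wild type arrays 1 and 2, and 4.22 and 5.17 on knockout arrays 1 and 2. The genotypes did not overlap, the knockout being lower, though knockout array 2 was only 0.17 below its wild type partner. The difference was -0.93 ± 0.46 (SE, n = 2 per group; 95% interval -2.03 to 0.17), a 1.91-fold lower level, with an unadjusted limma p of 0.0846 and an adjusted p of 0.9999. Within number 1 it was -1.70 and within number 2 it was -0.17. Without knockout array 1 it was -0.46, so that array carried much of the difference. The number difference also ran opposite ways, at -0.58 in the wild type and 0.95 in the knockout.

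Hba-x (10375046) read 6.28 and 6.01 in the wild type and 5.45 and 5.88 in the knockout. The groups did not overlap, and the gap between the nearest arrays was the 0.13 between the number 2 arrays. Limma gave a difference of -0.49 ± 0.38 (SE, n = 2 per group; 95% interval -1.38 to 0.41) with an adjusted p of 0.9999 by limma. Within number 1 it was -0.84, and without knockout array 1 the fitted value was -0.27. Hbb-bh1 (10566268), the other early embryonic beta-like gene, read 4.09 and 4.30 in the wild type and 3.68 and 4.09 in the knockout, and its groups overlapped narrowly. It differed by -0.31 ± 0.37 (95% interval -1.19 to 0.58), with -0.41 within number 1 and -0.21 within number 2, and without knockout array 1 the value was -0.10. All 3 embryonic genes were lower within each number. Hba-x lay above the array median on all 4 arrays, whereas Hbb-bh1 lay below it on all 4 and Hbb-y on both knockout arrays and, by a hair, on wild type array 2. Hbb-bh1 ranked 18223 to 21272 of 23410 over the 4 arrays and may be background, so its lower values need not reflect a transcript. Low values can also understate a difference.

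**Figure D3:**
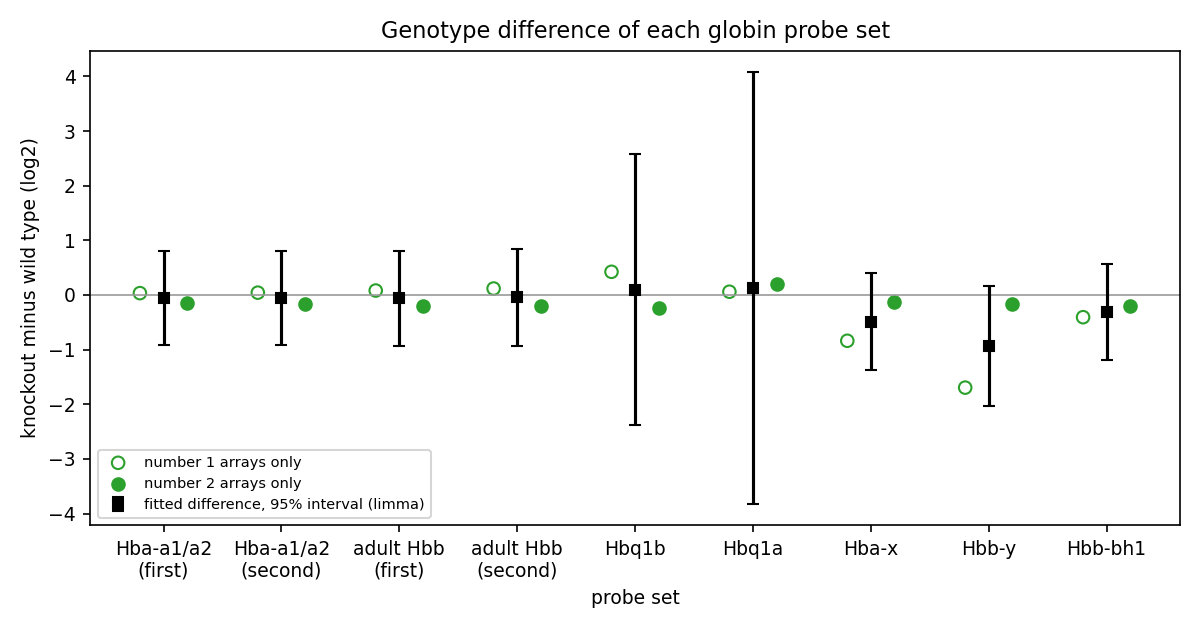
Knockout minus wild type difference (log2) of each globin probe set, with black squares for the limma estimate and its 95% interval and green circles for the difference within number 1 (open) and number 2 (filled). Every interval includes 0, those of Hbq1a and Hbq1b are widest, and the embryonic genes Hba-x, Hbb-y and Hbb-bh1 lie below 0 in both numbers.

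Over the 9 probe sets, limma called 0 at an adjusted p under 0.05, and it called 0.0% of the 23410 tested. At an unadjusted p under 0.05 it called 0 of the 9 against 2.08% of all, or 1.73% for lower values alone. Groups did not overlap for 2 of 9 probe sets with lower values in the knockout, against 9.42% of all in that direction, and for 0 with higher values, against 15.6%. Differences were below 0 for 7 of 9, against 43.6%. Among the 7 are all adult probe sets, at -0.06 to -0.04, for which no direction is given. The median difference was -0.06 over the members and 0.06 over all annotated probe sets. With the replicate number as a block the members still gave 0 calls, where 1.17% of all probe sets were called. The genotype difference changed sign between the numbers for 5 of 9 against 51.4%, and the number difference changed sign between the genotypes for 2 of 9 against 38.9%. These shares describe the list, whose probe sets for the adult genes overlap in what they read.

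Several lists of markers of other marrow cells were lower in the knockout, as the embryonic genes were, and others were not. All 10 neutrophil markers were lower in the knockout, 9 of them without overlap, with a median of -1.46 and a summed level of 15.0 to 15.2 in the wild type and 14.2 to 14.5 in the knockout. Of 7 B cell markers 6 were lower, with a median of -1.40 and summed levels of 10.1 to 10.6 against 8.94 to 9.25. All 7 markers of mast cells, basophils and eosinophils were lower (median -1.54; 9.63 to 10.7 against 8.61 to 8.72), as were 7 of 8 of monocytes and macrophages (median -0.81; 12.4 to 12.4 against 11.5 to 11.6). Early erythroid genes were lower for 7 of 8, with a median of -0.56, and their summed level was 9.96 to 10.5 against 9.07 to 9.81. In the other direction, 3 of 4 megakaryocyte and platelet markers were higher in the knockout (median 0.58, 8.55 to 8.97 against 8.14 to 9.08). Of 9 late erythroblast markers 7 were higher (median 0.44), 0 without overlap, with summed levels of 12.6 to 14.5 against 13.3 to 14.4. Within number 1 Xpo7, Bcl2l1, Trim58, Trim10 and Riok3 were higher, but within number 2 lower, by 3.53 and -0.33 for Xpo7. Slc25a37, Ube2l6 and Bnip3l were higher within both numbers, and Tspo2 lower within both. The 10 erythroblast markers had a median of 0.10 and summed levels of 13.7 to 14.9 against 14.1 to 14.7. Of all these markers 0 passed the adjusted limma test, and their part in the globin values was not tested.

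**Figure D4:**
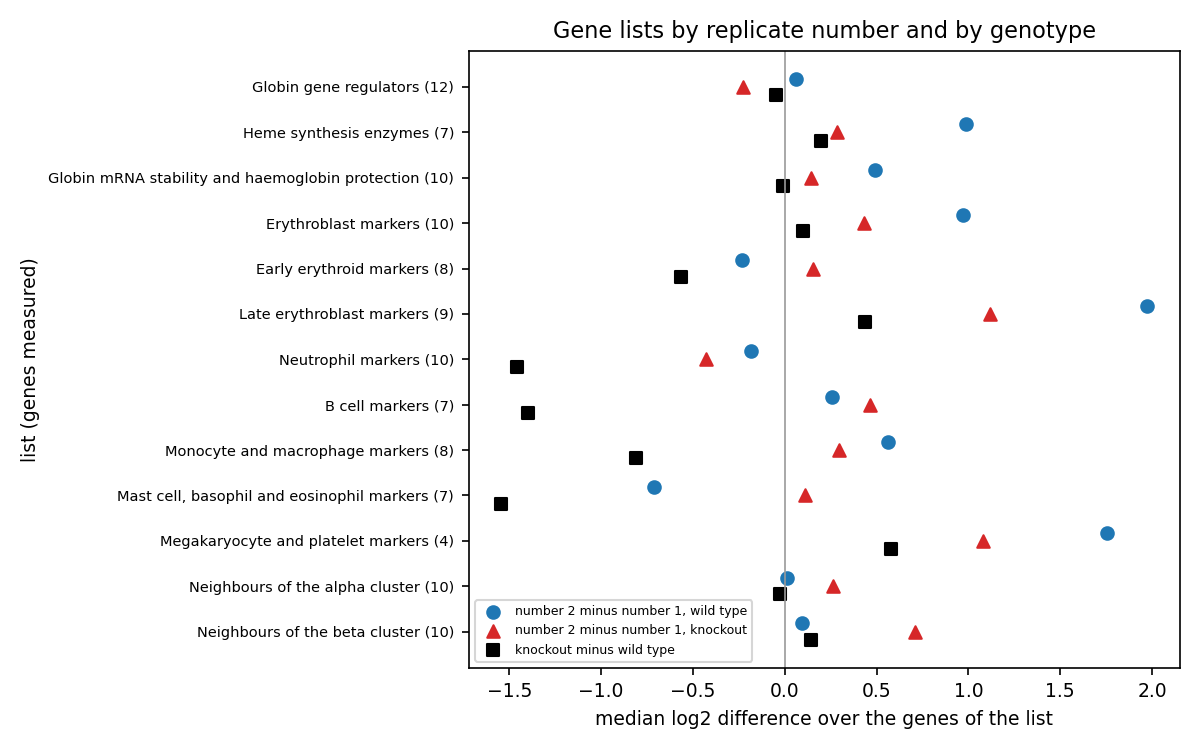
Median log2 difference (horizontal axis) over the genes of each list (vertical axis, genes measured in brackets), as number 2 minus number 1 in the wild type (blue circles) and the knockout (red triangles), and as knockout minus wild type (black squares). Late erythroblast markers are shifted by number, at 1.98 and 1.12, and neutrophil, B cell and mast cell lists by genotype, at -1.46, -1.40 and -1.54.

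Genes that drive or serve globin production were compared next. Of 12 globin gene regulators 5 were higher and 7 lower, the median was -0.05, and 0 passed the adjusted limma test. Cbfa2t3, a corepressor in the GATA1 and TAL1 complex, had the lowest p of the list: it read 6.72 and 6.83 in the wild type and 7.94 and 8.32 in the knockout, a difference of 1.35 ± 0.36 (SE, n = 2 per group) with an unadjusted limma p of 0.00811. Its groups did not overlap. Ldb1, the adaptor that loops the beta-globin enhancer to its promoters, differed by -0.70 ± 0.62, and the erythroid factor Tal1 by 0.27 ± 0.39. Klf1, which activates the adult beta-globin promoter, differed by 0.08 ± 0.39, and Bcl11a, a repressor of embryonic globin genes, by -0.29 ± 0.65. Bcl11a was lower on number 2 in both genotypes, by -1.36 and -1.50.

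Of 7 measured heme synthesis enzymes 5 were higher and 2 lower, with a median of 0.20 and 0 past the adjusted test. Within number 1 every enzyme was higher in the knockout, by 0.06 to 0.95. Within number 2 Uros and Alas2 were higher, but Fech, Urod, Alad, Ppox and Cpox were lower, by -0.43 to -0.10. Alas2, the erythroid enzyme of the first step, read 10.18 and 12.09 in the wild type and 11.13 and 12.24 in the knockout, a difference of 0.55 ± 0.69. Uros differed by 0.48 ± 0.42 and the final enzyme Fech by 0.29 ± 0.51. By number, 6 of 7 were higher on number 2 in both genotypes, with medians of 0.99 and 0.29. Genes of globin mRNA stability and haemoglobin protection were split 5 and 5, with a median of -0.01 and 0 past the adjusted test. Catalase (Cat) differed by 0.86 ± 0.72, Bpgm, whose product tunes oxygen release, by 0.76 ± 0.84, and Pcbp2, which binds the alpha-globin mRNA, by -0.31 ± 0.42.

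The nearest protein-coding genes, 5 on each side of each cluster, were compared in the same way. Of 10 around the alpha cluster 5 were higher and 5 lower, with a median of -0.03, and 0 passed the adjusted limma test. Stk10, a kinase gene, had the lowest p: it read 6.82 and 6.84 in the wild type and 5.14 and 5.53 in the knockout, a difference of -1.50 ± 0.36 (SE, n = 2 per group). Il9r differed by 0.57 ± 0.39 and Snrnp25 by 0.51 ± 0.43. Nprl3, whose introns hold the main alpha-globin enhancers, differed by number by 2.07 in the wild type and 0.16 in the knockout, and by genotype by -0.24 ± 0.66. The 10 genes around the beta cluster are all olfactory receptor genes. Of these, 8 were higher and 2 lower, with a median of 0.14 and 0 past the adjusted test. Over all annotated probe sets 56.4% were higher. The summed level of the 10 was 7.39 and 7.75 on wild type arrays 1 and 2, and 7.39 and 8.34 on knockout arrays 1 and 2. Olfr632 differed by 0.66 ± 0.59, Olfr629 by 0.41 ± 0.41 and Olfr64 by 0.27 ± 0.39. Olfr629 and Olfr64 lay below the array median on every array, and Olfr632 on the number 1 arrays, so these values may be background.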

How the data were processed

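RNA (100 ng per sample, per the labels) was hybridised to 4 Affymetrix whole-transcript arrays. The deposited log2 expression table has 35511 rows, and its 4 columns were assigned to samples by name. RMA, limma and R 3.0.2 appear, with no roles given, in the submitters' processing notes. RMA yields background-corrected, quantile-normalised log2 values, yet the sorted columns differed by up to 0.50. The values were used as deposited.

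Symbols are those of the array's platform table: 21789 probe sets have 1, 1621 have several and 12101 rows have none. Of the 21789, 21698 had a gene ID in the RefSeq table of GRCm38.p6, and 0 symbols changed. Promoter sequences and positions are from RefSeq on that build, and 8 of the 11 member symbols with a probe set had a printed or compared promoter window.

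The genotype test was lmFit followed by eBayes from limma 3.58.1 (R 4.3.3), with 2 arrays a group, over 23410 annotated probe sets, with Benjamini-Hochberg adjustment and a threshold of 0.05. The script was tested on simulated data. The fit had 2 residual and 4.77 prior degrees of freedom. A two-sided exact permutation test of 2 against 2 cannot give a p below 0.333. No label states that each array is a different mouse, and the p-values therefore reflect array-to-array spread that may be technical only. Differences by number are values with no test. Precision is limited by there being 4 arrays.

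For lists, each gene was represented by its brightest probe set naming it alone. Named were every member, Parp2, the 3 genes of lowest p in each list of regulators, heme enzymes, stability and protection genes and cluster neighbours, genes needed to describe a list, and the 3 genes nearest to each single-gene member with a range of at least 1. The members and lists were chosen with earlier results of these data known. Alternatives were the replicate block, leaving out each array, centring, repeated quantile normalisation, dropping dim probe sets, moderation with a trend and robustness, all rows, an adjusted p under 0.1 and single-gene members only. Centring, repeated quantile normalisation and each genotype taken alone, for the number differences, were added after the data were seen.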

Additional observations from a re-analysis of the deposited data

Results flagged for a closer look

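For 7 of the 9 globin probe sets the arrays of one genotype or number moved one way and those of the other the opposite way. Among all annotated probe sets 63.6% did so, and with 1 array per genotype and number the difference was not tested. The measure is the number 2 minus number 1 difference of the knockout minus that of the wild type, on the log2 scale. It was 1.53 for Hbb-y and 0.70 for Hba-x, which were lower on number 2 in the wild type and higher in the knockout. It was -0.65 for Hbq1b, for which the knockout was higher within number 1 and lower within number 2. The adult probe sets behaved like Hbq1b, with -0.18 for 10375051, -0.20 for 10375058, -0.29 for 10566254 and -0.32 for 10566258.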

How the results depend on the processing

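No globin probe set passed the test in any setting run, while the count over all annotated probe sets (0) was 274 with the replicate block, 8 with trended and robust moderation and 0 to 62 with 1 array left out. The block leaves 1 residual degree of freedom. Whether the numbers pair the arrays is not known: across probe sets, the difference between numbers in the wild type correlated with that in the knockout at 0.468, and only 2 pairs exist. It gives every probe set the same SE, so calls follow the size of the difference. Of the genes named it called Stk10 (-1.50, adjusted limma p 0.0246) and Xpo7 (1.60, 0.0113). Stk10 differed by -1.68 within number 1 and -1.31 within number 2, but Xpo7 by 3.53 and -0.33, in opposite directions. Among the listed markers the block called 5 of 10 neutrophil, 4 of 7 B cell, 4 of 7 mast cell, basophil and eosinophil, and 1 of 8 early erythroid genes. The median over the globin probe sets (-0.06) was -0.51 to 0.091 with 1 array left out and -0.31 over the 5 probe sets naming 1 gene. Repeated quantile normalisation reversed adult probe sets 10375051 (0.0092), 10566254 (0.026) and 10566258 (0.071); the cause was not tested. Leaving out 1 array, which unbalances the numbers, gave -0.20 to 0.091 for 10375051, -0.21 to 0.091 for 10375058, -0.26 to 0.13 for 10566254, -0.27 to 0.19 for 10566258, -2.01 to 2.27 for Hbq1a, -1.33 to 1.53 for Hbq1b, -0.13 to 0.60 for Hbb-bh2, -0.0037 to 0.54 for Tal1, -1.43 to 0.033 for Ldb1, -0.41 to 1.50 for Alas2, -0.37 to 0.95 for Fech, -0.22 to 1.95 for Cat, -0.49 to 2.00 for Bpgm, -0.71 to 0.088 for Pcbp2, -0.084 to 1.40 for Olfr632 and -0.060 to 0.60 for Olfr64. Hbb-y (-1.41 to -0.46), Hba-x (-0.70 to -0.27), Hbb-bh1 (-0.51 to -0.10) and Parp2 (-1.33 to -0.74) stayed below 0 there, as did Stk10 (-1.69 to -1.30). Uros (0.083 to 0.88), Il9r (0.25 to 0.88), Snrnp25 (0.13 to 0.89), Olfr629 (0.097 to 0.72) and Cbfa2t3 (1.16 to 1.54) stayed above 0. Filtering dim probe sets kept 7 of the 9 members. Values near the ceiling or the floor limit what the arrays can show.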

Other observations

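Hbb-bh2, a beta-like gene of the cluster outside the member list, read 4.09 and 4.82 on wild type arrays 1 and 2, and 4.40 and 4.98 on knockout arrays 1 and 2. Its genotype groups overlapped, with a difference of 0.24 ± 0.43 (SE, n = 2 per group), and it was higher on number 2 by 0.73 in the wild type and 0.58 in the knockout.

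After Hbq1a and a probe set listed to several genes, the highest mean number differences were those of Mir144 (3.32), Mir103-2 (3.22) and Xpo7 (3.20), the odorant receptor gene Olfr543 (3.06) and the RNA-binding protein gene Rbm33 (3.05). The group thus held erythroid genes beside genes with no known red cell role. Ranks 8, 9 and 10 went to probe sets listed to both Gm20831 and Ssty1. They were higher on number 2 by 2.73 to 2.89 in the wild type and by 3.00 to 3.20 in the knockout. They read 3.23 to 3.88 on the number 1 arrays, below those arrays' medians, and 6.12 to 6.77 on the number 2 arrays. Sex is not given for the arrays, and its part in the number differences was not tested. These genes were chosen after their values were seen.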
